A study of Danio rerio with 16 samples.

Results

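The ribosome that translates nuclear messenger RNAs is built from a large (60S) and a small (40S) subunit. Each is made of ribosomal RNA and a set of ribosomal proteins, most of them needed in equal numbers. Their messenger RNAs are among the most abundant in growing cells, and many start with a run of pyrimidines through which growth signals set their translation as a group. In zebrafish, loss of single ribosomal protein genes stunts embryos and, in heterozygous adults, can lead to nerve sheath tumours. Cytosolic ribosomal protein genes were taken here by symbol: names starting with rpl or rps and a number, together with rpsa and the stalk genes of the rplp series, without rps27l and the rps6 kinases. That rule matched 72 genes with 77 probe sets among 8793 genes with a symbol on the array. One of them, rps19bp1, encodes a protein that binds Rps19 and is not a ribosomal protein, so it was set apart, which left 71 genes with 75 probe sets, 44 of the large and 27 of the small subunit. The gene rpl7l1, whose yeast relative is an assembly factor, was kept and counted with the large subunit by its name. Other ribosomal protein genes were not analysed here.

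RNA came from whole dechorionated zebrafish embryos at 24 or 48 hours post fertilisation (hpf). Mutants were homozygous for the nz171 allele of rad21, the gene of a subunit of cohesin, the ring complex that holds sister chromatids together and folds chromatin into loops, and the controls were wild type embryos of the same time. Each of the 4 groups had 4 pools of 50 embryos, labelled as biological replicates, and each pool had its own Affymetrix array, which gave 16 arrays. Because whole embryos were pooled, a change in the share of a cell type and a change in RNA per cell cannot be told apart.

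The labels and arrays were checked first. The targeted gene rad21a read between 10.06 and 10.55 in log2 intensity on the 8 wild type arrays and between 5.92 and 7.06 on the 8 mutant arrays, with no overlap. Of 14 markers of embryonic tissues, some were bright in every group. Lowest group means were 11.23 for the embryonic globin hbbe3, 13.15 for the muscle actin actc1b and 13.75 for the epidermal keratin krt4. Others were dim, with group means of 4.78 to 5.69 for cryaa and 4.54 to 5.65 for gata1a. The median over all probe sets was 5.59. At 48 hpf 6 of the 14 were called lower in mutants (adjusted p under 0.05 in limma) and 0 higher, beside 6.81% and 8.76% of all probe sets. Arrays had median intensities of 45.9 to 48.4. For muscle actin, the 3' control probe set exceeded the 5' one, a sign of RNA quality or of muscle content, by a log2 difference that lay between 3.57 and 3.78 in mutants and between 3.03 and 3.15 in wild types at 24 hpf. At 48 hpf it lay between 3.39 and 4.08 in mutants and between 2.41 and 2.81 in wild types. For the other control pair, of Gapdh, the difference overlapped between genotypes. It lay between 0.43 and 0.60 in mutants and between 0.29 and 0.59 in wild types at 24 hpf. At 48 hpf it lay between 0.58 and 0.65 and between 0.55 and 0.63. What part the actin difference has in the results below was not tested.

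Ribosomal protein probe sets were among the brightest of the array. Their mean log2 intensity over the 16 arrays ran from 9.50 for rpl7l1 to 14.18 for rps2, with a median of 13.31, against a median of 5.59 over all 15502 probe sets tested. In all, 68 of the 71 lay in the top 1% of probe sets and 56 were among the 100 brightest. The exceptions below a mean of 12 were rpl7l1 and rpl22l1 (11.25). At such brightness the scanner and the probes may respond less than in proportion to RNA, and how far this compressed the changes was not tested. The spread between replicates was small: the median fitted standard deviation was 0.11 for the 71 genes and 0.18 for all probe sets. Intensities of different probe sets depend on their probes, so subunits are compared below by their changes and not by their levels.

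Each gene was then set against its own mean over the 16 arrays, and the 71 values were averaged per array. At 24 hpf the wild type arrays read 0.15, 0.09, 0.07 and 0.06 on the log2 scale (replicates 1 to 4) and the mutant arrays 0.14, 0.11, 0.06 and 0.06. At 48 hpf the wild type arrays read -0.10, -0.10, -0.05 and -0.08, and the mutant arrays -0.01, -0.06, -0.10 and -0.21. The genotypes therefore overlapped at both times, whereas every array at 48 hpf lay below every array at 24 hpf. Mutant replicate 4 at 48 hpf was the lowest of all 16, and it was also the array least like its own group (mean correlation 0.983). Group means were 0.09 ± 0.04 in wild types and, likewise, 0.09 ± 0.04 in mutants at 24 hpf, and -0.08 ± 0.02 and -0.10 ± 0.09 at 48 hpf (SD, n = 4 each).

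The subunits differed little from each other. The mean of the large subunit genes minus that of the small subunit genes stayed between -0.04 and 0.04 on all 16 arrays. By group it was 0.02 ± 0.02 in wild types and 0.02 ± 0.02 in mutants at 24 hpf, and -0.02 ± 0.02 in each at 48 hpf (SD, n = 4). The large subunit mean includes rpl7l1, which had the lowest change with age in both genotypes (-0.96 and -0.93).

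**Figure D1:**
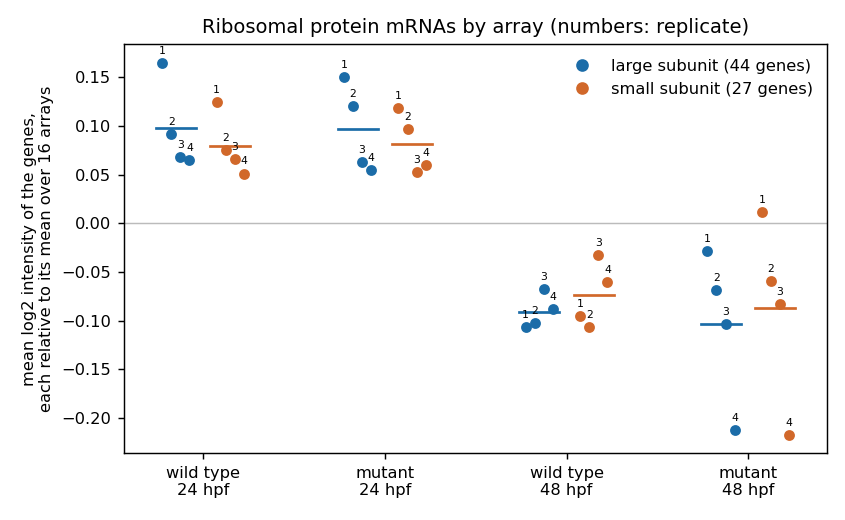
Mean log2 intensity of the large (blue, 44 genes) and small (orange, 27 genes) subunit genes on each array, each gene relative to its own mean over 16 arrays; points are arrays with their replicate number and bars are group means. Wild type and mutant arrays overlap at both times, all 48 hpf values but one lie below 0, and mutant replicate 4 at 48 hpf is the lowest.

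The comparison of mutants with wild types at 24 hpf asked whether ribosomal protein messages differ once cohesin function is reduced. None of the 71 genes passed the threshold (adjusted p under 0.05 in limma), while 7.35% of all probe sets did, 3.26% of them higher and 4.09% lower in mutants. One gene, rpl7l1, was lower at an unadjusted p under 0.05 and 0 were higher, beside 10.6% and 9.85% of all probe sets. The median log2 change was -0.0051 over the 71 genes, -0.0014 over the large and -0.0051 over the small subunit, beside 0.00037 over all probe sets. A total of 37 genes lay below 0, or 52.1%, against 49.9% of all probe sets. Mutant arrays lay wholly below wild type arrays for 3 genes (7.55% of all probe sets did so) and wholly above for 0 (7.1%). The 3 were rpl7l1, rpl6 (-0.14 ± 0.08) and rpl24 (-0.13 ± 0.08), where ± gives, for every change, its standard error (SE) from limma.

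The intervals that follow bound the array signal, which at this brightness may understate a difference in message. The 95% confidence interval of the mutant change at 24 hpf lay inside a 1.5-fold change either way for 70 of the 71 genes, all but rpl7l1, against 76.9% of all probe sets. A narrower limit of 1.2-fold, added after values were seen, held the interval of 61 genes and of 14.2% of all probe sets. The highest changes were 0.20 for rpl29 (95% interval -0.08 to 0.48), 0.17 for rplp2 (-0.03 to 0.38), 0.13 for rps27.2 (-0.08 to 0.34), 0.11 for rpl21 and 0.09 for rps24. After rpl7l1, rpl6 and rpl24, the lowest were -0.08 for both rps3a and rpl37. The spread of the changes over the 71 genes was 0.08 (SD over genes).

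At 48 hpf, again, 0 of the 71 genes passed in limma, while 15.6% of all probe sets did (8.76% higher, 6.81% lower). With an unadjusted p under 0.05, 4 genes were lower in mutants (rpl7l1, rpl22l1, rpl38 and rps3a) and 0 higher, beside 11.3% and 16.6% of all probe sets. A total of 35 genes lay below 0, against 43.5% of all probe sets. The median log2 change was 0.00012 for the whole set, 0.0059 for the large and -0.000082 for the small subunit, beside 0.033 over all probe sets. The sign of the set's median depended on how arrays were scaled: it was 0.04 after quantile normalization, with 20 genes below 0, and -0.04 after cyclic loess, with 57 below 0. The 95% interval stayed inside 1.5-fold for 70 genes, all but rpl7l1 (71.6% of all probe sets), and inside 1.2-fold for 51 (11.7%). Mutant arrays lay wholly below wild type arrays for 5 genes (7.21% of all probe sets) and wholly above for 0 (10.6%). The 5 were rpl7l1, rps3a (-0.19 ± 0.08), rpl38 (-0.17 ± 0.08), rpl12 (-0.15 ± 0.08) and rpl9 (-0.09 ± 0.08). The highest changes were 0.17 ± 0.08 for rpl7, 0.13 ± 0.08 for rps18, and 0.12 each for rpl19, rplp2 and rpl8.

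The 0 calls at 48 hpf rested on values near the threshold. Both rpl7l1 and rpl22l1 passed when mutant replicate 1 at 48 hpf was left out (adjusted p = 0.0453 and 0.0153), and likewise with the first wild type pool of 24 hpf left out (adjusted p = 0.0444 and 0.0362). The gene rpl7l1 alone passed without mutant replicate 4 at 24 hpf (adjusted p = 0.049) and without mutant replicate 2 at 48 hpf (adjusted p = 0.0484).

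**Figure D2:**
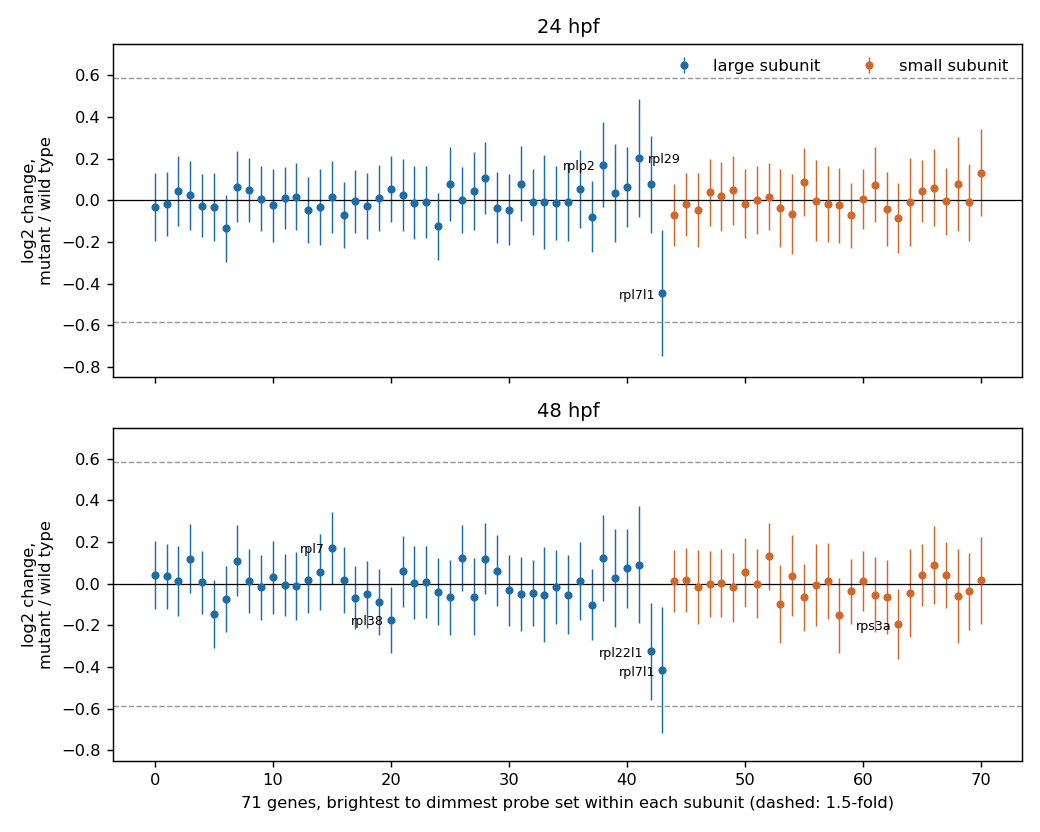
Log2 change between mutants and wild types for each of the 71 genes at 24 hpf (top) and 48 hpf (bottom), with 95% confidence intervals from limma; genes run from the brightest to the dimmest probe set within the large (blue) and small (orange) subunit, and dashed lines mark a 1.5-fold change. Almost all intervals span 0 within the dashed lines, and rpl7l1 at both times and rpl22l1 at 48 hpf lie lowest.

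The member with the lowest mutant value at both times was rpl7l1, a relative of rpl7 whose yeast relative is a factor of large subunit assembly rather than a part of the mature ribosome. At 24 hpf the log2 intensity of its wild type arrays was 10.47, 10.05, 10.12 and 10.17, and that of its mutant arrays 9.98, 9.99, 9.59 and 9.46. By 48 hpf the wild types read 9.17, 9.24, 9.11 and 9.44, and the mutants read 9.02, 9.03, 8.69 and 8.55. All mutant arrays were below all wild type arrays at each time, but the differences did not pass (-0.45 ± 0.14, adjusted p = 0.0711, and -0.41 ± 0.14, adjusted p = 0.0612). They did pass in limma after cyclic loess (adjusted p = 0.0396 and 0.0246) and with the replicate number as a block (adjusted p = 0.0462 and 0.0394). Its parent rpl7, a core large subunit protein, read 0.01 ± 0.08 at 24 hpf and 0.17 ± 0.08 at 48 hpf (adjusted p = 0.182).

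The paralogue pair rpl22 and rpl22l1 encodes RNA-binding proteins of the large subunit that can stand in for each other, and in zebrafish they have been given opposite roles in the emergence of blood stem cells. For rpl22l1 the wild type arrays at 24 hpf read 11.10, 11.39, 11.51 and 11.38 and the mutant arrays 11.57, 11.31, 11.39 and 11.41, so that the groups overlapped. At 48 hpf the wild types read 11.43, 11.21, 11.24 and 11.26 and the mutants 11.23, 10.90, 10.95 and 10.76. There 3 of the 4 mutant arrays lay below all wild type arrays and the other lay inside their range. The difference at 48 hpf was -0.32 ± 0.11 (adjusted p = 0.0572), against 0.08 ± 0.11 at 24 hpf (adjusted p = 0.802), and the interaction, which tests whether these differences differ, was -0.40 ± 0.16 (adjusted p = 0.289). At 48 hpf the gene passed with arrays centred on their median (adjusted p = 0.0311), scaled by cyclic loess (adjusted p = 0.0323) or tested with an intensity trend (adjusted p = 0.0416). The value of rpl22 was 0.05 ± 0.09 at 24 hpf and 0.01 ± 0.09 at 48 hpf.

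The gene rpl38 encodes a large subunit protein that in mouse is needed for the translation of certain Hox messages. Its wild type arrays at 24 hpf read 13.57, 13.37, 13.37 and 13.42 and its mutant arrays 13.47, 13.56, 13.48 and 13.44, which overlapped. At 48 hpf the wild types read 13.30, 13.15, 13.26 and 13.23 and the mutants 13.08, 13.02, 13.10 and 13.04, without overlap. The change at 48 hpf was -0.17 ± 0.08 (adjusted p = 0.136) and the interaction -0.23 ± 0.11 (adjusted p = 0.405). After cyclic loess the change at 48 hpf passed (-0.22, adjusted p = 0.045), as did that of rps3a, a small subunit gene (-0.24, adjusted p = 0.027). By contrast, quantile normalization gave no lower call at 48 hpf and 2 higher ones, rpl21 (0.26, adjusted p = 0.0358) and rpl19 (0.25, adjusted p = 0.0331).

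No member passed for the interaction in limma, where 1.45% of all probe sets did, 0.606% higher and 0.845% lower. With an unadjusted p under 0.05, 2 of the 71 were lower (rpl22l1 and rpl38) and 0 higher, beside 5.01% and 6.92% of all probe sets. Of the 71 genes 39 lay below 0 (43.4% of all probe sets), and the median was -0.0043 over the 71 genes and 0.034 over all probe sets.

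Groups defined by their place in the ribosome, chosen after values had been seen, are given next. Of the 5S particle, in which Rpl5 and Rpl11 bind 5S ribosomal RNA and, when free of the ribosome, can inhibit Mdm2, all 3 genes were measured. Their changes ran from -0.01 (rpl11) to 0.06 (rpl5a) at 24 hpf and from -0.05 (rpl5b) to 0.07 (rpl5a) at 48 hpf. For rpl11 the 4 mutant arrays read 13.37, 13.39, 13.33 and 13.26 at 24 hpf, against 13.56, 13.28, 13.31 and 13.26 in wild types, and at 48 hpf they read 13.09, 13.14, 13.25 and 13.12 against 13.16, 13.07, 13.13 and 13.21 in wild types, so that the groups overlapped at both times. The gene mdm2 itself read 0.0094 ± 0.16 at 24 hpf (adjusted p = 0.987) and was 3.15-fold higher in mutants at 48 hpf (adjusted p = 1.8e-06).

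Of the genes whose human counterparts are mutated in Diamond-Blackfan anaemia, an inherited failure of red cell production, 9 were measured and 0 passed at either time in limma. They ran from -0.04 (rps7) to 0.09 (rps24) at 24 hpf and from -0.10 (rps7) to 0.07 (rpl5a) at 48 hpf. The best known of them, rps19, read 13.48, 13.30, 13.34 and 13.38 in wild types, against 13.38, 13.38, 13.33 and 13.34 in mutants at 24 hpf. At 48 hpf it read 13.18, 13.17, 13.44 and 13.30 in wild types, against 13.38, 13.36, 13.29 and 13.12 in mutants. The genotypes overlapped at both times, with changes of -0.02 ± 0.09 and 0.01 ± 0.09.

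At the messenger entry and decoding face of the small subunit, rps2, rps3, rps15 and rps23 ran from -0.07 to 0.02 at 24 hpf and from -0.01 to 0.01 at 48 hpf. The 7 proteins around the exit of the nascent chain tunnel (rpl17, rpl19, rpl23a, rpl26, rpl31, rpl35 and rpl39) ran from -0.05 to 0.08 and from -0.07 to 0.12. In the stalk, which recruits elongation factors, 3 genes were measured. The base protein gene rplp0 read -0.03 ± 0.08 and 0.04 ± 0.08. The gene rplp2, of the small acidic proteins carried on that base, read 0.17 ± 0.10 (adjusted p = 0.358 in limma) and 0.12 ± 0.10 (adjusted p = 0.456). The third, rpl12, read -0.03 ± 0.08 (adjusted p = 0.893) and -0.15 ± 0.08 (adjusted p = 0.233). The small subunit gene rpsa, which also encodes the laminin receptor, read -0.05 ± 0.08 and -0.02 ± 0.08.

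Several genes had more than one probe set, and these did not always move alike. The brightest probe set of rps27.1, which encodes a zinc-binding protein of the small subunit, averaged 13.20 and read -0.01 ± 0.10 at 24 hpf and -0.04 ± 0.10 at 48 hpf in mutants against wild types. Its second probe set read 11.55, 11.45, 11.44 and 11.38 in wild types, against 11.78, 11.69, 11.60 and 11.51 in mutants at 24 hpf, and 11.64, 11.51, 11.54 and 11.60 in wild types, against 11.46, 11.17, 11.42 and 11.33 in mutants at 48 hpf. The mutants thus lay mostly above the wild types at the first time and wholly below them at the second. Changes for that probe set were 0.19 ± 0.09 (adjusted p = 0.223) and -0.22 ± 0.09 (adjusted p = 0.0931), with an interaction of -0.41 ± 0.12 (adjusted p = 0.122). Its dimmest probe set read 0.09 ± 0.09 and -0.20 ± 0.09, also not called. The paralogue rps27.2 read 0.13 ± 0.10 and 0.02 ± 0.10.

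The name rule left out rps27l, a paralogue of rps27 that p53 activates in human and mouse cells. Its wild type arrays read 9.10, 8.10, 8.48 and 8.55 and its mutant arrays 9.37, 9.33, 9.46 and 9.51 at 24 hpf. At 48 hpf they read 8.64, 8.68, 8.67 and 9.03 in wild types, against 10.12, 9.85, 10.47 and 10.73 in mutants, and at neither time did the genotypes overlap. It rose in mutants 1.82-fold (0.86 ± 0.19, adjusted p = 0.0107) and 2.9-fold (1.54 ± 0.19, adjusted p = 2.9e-05). Of the other ribosomal proteins outside the rule, the scaffold gene rack1 read -0.01 ± 0.09 and -0.08 ± 0.09. The fau genes encode a small subunit protein fused to a ubiquitin-like protein. There faua, a bright probe set (mean 13.09), read -0.08 ± 0.08 and 0.01 ± 0.08, whereas faub, a dimmer one (7.81), rose in mutants (0.59 ± 0.14, adjusted p = 0.0153, and 0.43 ± 0.14, adjusted p = 0.0455). The call of faub at 48 hpf ended under 14 of 25 alternatives.

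Of other members with several probe sets, a further rpl21 probe set read between 3.14 and 3.47 on all arrays, near the lowest intensities of the array, against a mean of 13.15 for the main one. The 2 probe sets of rpl3 read -0.02 and -0.03 at 24 hpf and 0.04 and -0.03 at 48 hpf, none called. The paralogue pair rps26 and rps26l read -0.01 each at 24 hpf, and 0.04 and -0.04 at 48 hpf. Probe sets of near-identical paralogues may share signal, so their values are not fully separate.

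**Figure D3:**
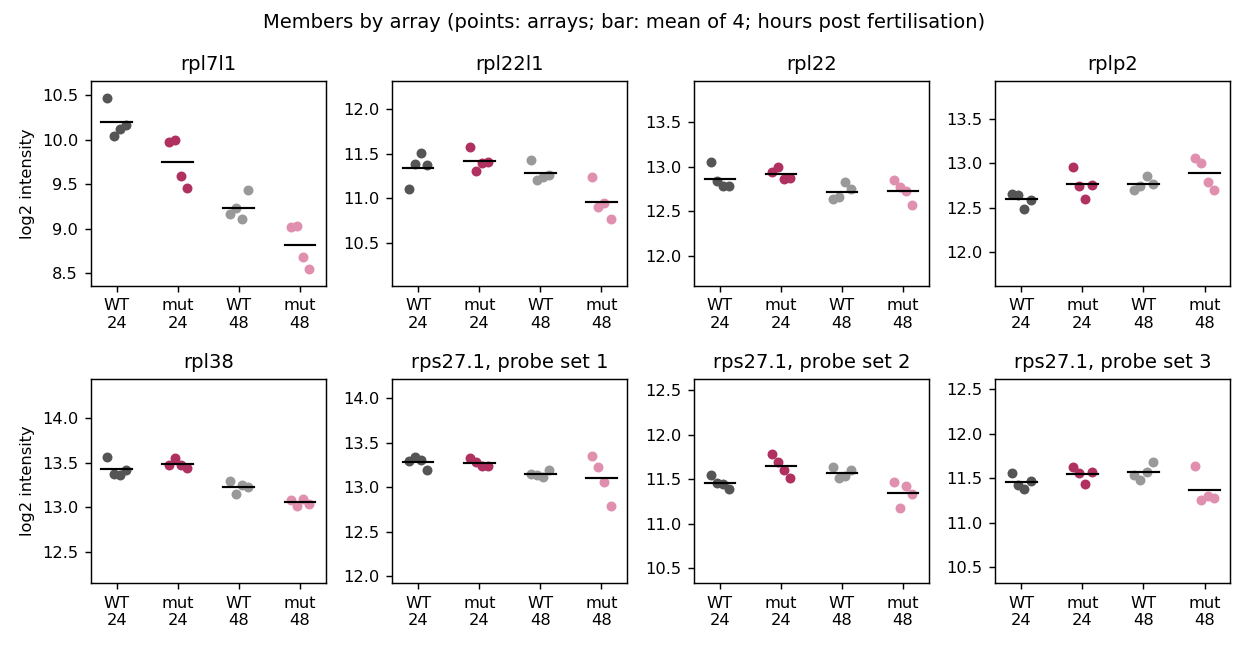
Log2 intensity on each array (points) with the mean of 4 (bars) for rpl7l1, rpl22l1, rpl22, rplp2, rpl38 and the 3 probe sets of rps27.1, from the brightest to the dimmest; all panels span the same log2 range. The rpl7l1 arrays fall with age and lie lower in mutants at each time, and the mutant arrays of rpl38 at 48 hpf lie below the wild type arrays; neither genotype difference passed the test.

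The comparison of 48 with 24 hpf within each genotype described how these messages change as embryos pass from organ formation to hatching. The ribosomal protein set shifted down slightly in both genotypes. In wild types 70 of the 71 genes lay below 0 (55.3% of all probe sets), with a median log2 change of -0.16 beside -0.03 over all probe sets. In mutants 70 of 71 lay below 0 (48.7%), with a median of -0.18 beside 0.008. By their brightest probe sets, the same 70 genes were below 0 in both genotypes, and the exception in both was rplp2. The 48 hpf arrays lay wholly below the 24 hpf arrays for 41 genes in wild types (18% of all probe sets) and for 38 in mutants (13%), of which 23 were shared. They lay wholly above for 1 gene in wild types, rplp2 (12.6%), and for 0 in mutants (12%).

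The shift was small, and other bright probe sets also had medians below 0. The 101 other probe sets with a mean of at least 12 had medians of -0.09 in wild types and -0.11 in mutants. They are all those outside the name rule, so they include the ribosomal protein genes rack1 and faua. Probe sets of ribosomal proteins that lack a single symbol may also be among them. With arrays scaled by cyclic loess the medians of the 71 genes were -0.07 and -0.10, with 63 genes below 0 in each genotype. After quantile normalization the median in mutants was -0.10, while that in wild types moved by less than 0.035.

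Fewer genes passed the test than lay below 0. Among wild types 10 of 71 were called, all of them lower, or 14.1%, while 17.7% of all probe sets were called lower, 12.6% higher and 30.3% in either direction. Among mutants 16 of 71 were called, all lower, or 22.5%, against 12.6% lower, 11% higher and 23.7% in either direction. At an unadjusted p under 0.05, 32 genes were lower in wild types and 41 in mutants, beside 23.8% and 19.1% of all probe sets, and 0 were higher in either (16.3% and 16.1%). By subunit the calls were 8 of 44 large and 2 of 27 small in wild types, and 12 of 44 and 4 of 27 in mutants. Median changes of the large subunit were -0.18 and -0.19, and those of the small subunit -0.15 and -0.17. A total of 4 genes were called in both genotypes (40% of the wild type calls and 25% of the mutant calls), namely rpl7l1, rpl26, rpl27a and rpl36.

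The largest fall with age was that of rpl7l1, 1.95-fold in wild types (-0.96 ± 0.14, adjusted p = 8.87e-05) and 1.91-fold in mutants (-0.93 ± 0.14, adjusted p = 0.00019), with no overlap between times in either genotype. Among the remaining wild type calls were rpl27a (-0.31 ± 0.11), rpl17 (-0.28 ± 0.09), rpl36 (-0.28 ± 0.08), rpl19 (-0.27 ± 0.08), rpl26 (-0.25 ± 0.07), rpl4 (-0.23 ± 0.08) and rpl28 (-0.23 ± 0.08), all of the large subunit. The small subunit genes called were rps6 (-0.21 ± 0.07), whose protein is phosphorylated in response to growth signals, and rps4x (-0.21 ± 0.07). For rpl26 the wild type arrays fell from 13.75, 13.69, 13.71 and 13.66 at 24 hpf to 13.43, 13.43, 13.52 and 13.44 at 48 hpf.

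In mutants, the falls after rpl7l1 were in rpl22l1 (-0.46 ± 0.11, adjusted p = 0.00644), rpl38 (-0.43 ± 0.08, adjusted p = 0.000591), rpl29 (-0.39 ± 0.13, adjusted p = 0.0449), rpl27a (-0.31 ± 0.11), rps15a (-0.31 ± 0.11), rpl39 (-0.27 ± 0.08) and rps25 (-0.25 ± 0.08). In wild types rpl22l1 read -0.06 ± 0.11 (adjusted p = 0.749) and rpl38 -0.20 ± 0.08 (adjusted p = 0.0545). These genotype differences in the change with age are the interaction given above, which did not pass for either gene. The second probe set of rps27.1 was called lower in mutants (-0.30 ± 0.09, adjusted p = 0.0188 in limma). The brightest probe set of that gene read -0.17 ± 0.10 in mutants, and the dimmest -0.18 ± 0.09. In wild types the second and the dimmest lay above 0 (0.12 ± 0.09 and 0.11 ± 0.09, not called). The brightest read -0.13 ± 0.10 there.

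The stalk gene rplp2 lay above 0 with age. Its wild type arrays read 12.66, 12.65, 12.49 and 12.59 at 24 hpf and 12.70, 12.75, 12.86 and 12.77 at 48 hpf, all of them higher at the later time. The difference was 0.17 ± 0.10 and did not pass (adjusted p = 0.199), although it did after cyclic loess (0.28, adjusted p = 0.027). In mutants the change was 0.13 ± 0.10. Its partner rplp0 read -0.15 ± 0.08 and -0.08 ± 0.08. The gene rpl12, grouped with the stalk above, read -0.12 ± 0.08 in wild types and -0.23 ± 0.08 in mutants. In mutants it was called lower in limma (adjusted p = 0.0367), a call that ended under 11 of 26 alternatives.

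Of the 26 calls with age in the 2 genotypes, 4 held under every alternative run, namely rpl7l1 in both genotypes and rpl22l1 and rpl38 in mutants. The other 22 ended under at least one. The number of wild type calls fell from 10 to 4 without wild type replicate 1 at 24 hpf and to 5 or 6 without wild type replicates 2 or 3 or mutant replicates 2, 3 or 4 at 24 hpf, or wild type replicates 1 or 2 at 48 hpf. The number of mutant calls fell from 16 to 3 without mutant replicate 2 at 24 hpf, to 4 without mutant replicate 4 at 48 hpf, to 5 or 6 without mutant replicates 1 or 3 at 24 hpf or replicate 3 at 48 hpf, and to 9 or 10 without mutant replicate 4 at 24 hpf or replicate 2 at 48 hpf. Without the 3 arrays least like their groups (at 24 hpf wild type replicate 1, and at 48 hpf replicates 3 of the wild types and 4 of the mutants) there were 6 and 5 calls.

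**Figure D4:**
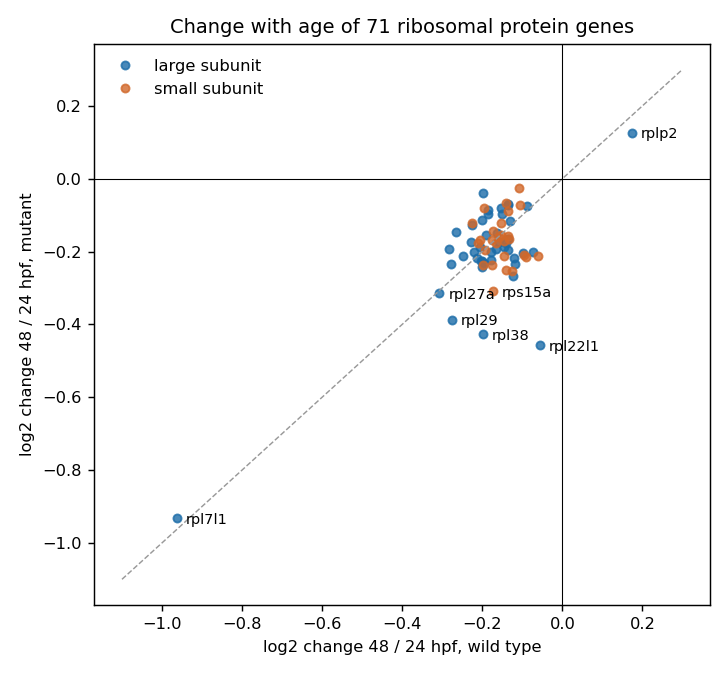
Log2 change from 24 to 48 hpf in wild types (horizontal) and mutants (vertical) for the 71 genes, large subunit in blue and small in orange; the dashed line marks equal change. Most genes cluster between -0.3 and 0 on both axes, rpl7l1 lies near -0.96 and -0.93, and rplp2 is the gene above 0 on both.

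Genes that build or regulate ribosomes are shown beside the ribosomal proteins, from lists drawn up with earlier results of these data known. Factors of 40S maturation had 5 of 15 members called lower in mutants at 24 hpf and 2 of 15 at 48 hpf (medians -0.51 and -0.29), and 0 called higher in limma. Among them were mphosph10, of the complex that processes small subunit RNA (-0.86 at 24 hpf, adjusted p = 0.00193), and tsr1, a late 40S assembly factor (-0.76, adjusted p = 0.0103). Factors of 60S maturation had 8 and 9 of 24 called lower and 0 higher (medians -0.40 and -0.33). They included rrs1, which helps to load the 5S particle with Rpl5 and Rpl11 (-0.68 at 24 hpf, adjusted p = 0.00419, and -0.44 at 48 hpf, adjusted p = 0.0305), and the nucleolar GTPase gene gnl3l (-0.73, adjusted p = 0.00208). At 48 hpf rrs1 lost its call under 6 of 25 alternatives.

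Mitochondrial ribosomal proteins, which form the separate ribosome of that organelle, had 8 of 59 members called lower at 24 hpf and 4 of 59 at 48 hpf, with 0 higher (medians -0.27 and -0.08). The changes at 24 hpf were -0.69 for mrpl12 (adjusted p = 0.00886) and -0.56 for mrpl49 (adjusted p = 0.00655). Over all probe sets 4.09% and 6.81% were called lower at these times. Whether these lists differ from the cytosolic ribosomal proteins was not tested, and their probe sets are dimmer.

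Translation factors and other genes whose messages carry the same pyrimidine start had 3 of 26 called lower at 24 hpf and 5 of 26 at 48 hpf, with 0 higher (medians -0.05 and -0.10). Those that fell included the elongation factor gene eef2a.1 (-0.77, adjusted p = 0.000444, at 24 hpf) and the nucleolar gene npm1a (-0.52, adjusted p = 0.0423, a call that ended under 11 of 25 alternatives). Of 17 genes listed under control of ribosomal protein supply, 4 were called lower at 24 hpf and 0 higher (median -0.14). The 4 were all of the Myc family, with myca 4.83-fold lower. At 48 hpf the same 4 were called lower, with myca 6.54-fold lower. There 2 were called higher, mdm2 and the translation repressor gene eif4ebp1 (0.33, adjusted p = 0.0385 in limma), and the median was 0.04. The gene mdm2 is on this list although its protein, as given above, is one that free Rpl5 and Rpl11 can inhibit. Over all probe sets 4.09% were called lower and 3.26% higher at 24 hpf, and 6.81% lower and 8.76% higher at 48 hpf.

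With age, most maturation factors were called lower in both genotypes, beside 17.7% of all probe sets called lower in wild types and 12.6% in mutants. The shares of all probe sets called higher were 12.6% in wild types and 11% in mutants. In wild types 13 of 15 40S factors were called lower (median -0.91), and 19 of 24 60S factors lower (median -0.72) and 1, nsa2, higher (0.33, adjusted p = 0.0193). In mutants 11 of 15 and 18 of 24 were called lower (medians -0.62 and -0.55) and 0 higher. Of the 26 translation factors and other genes with the pyrimidine start, 5 were called lower and 5 higher in wild types (median -0.15), and 8 lower and 6 higher in mutants (median -0.23). Of the mitochondrial ribosomal proteins, 19 of 59 were called lower in wild types (median -0.26) and 3 of 59 in mutants (median -0.09). For the interaction 0 of these 59 were called, beside 1.45% of all probe sets. The brightest probe set of the name-matched rps19bp1 fell as well, by 0.45 on the log2 scale in wild types and by 0.33 in mutants. Between genotypes it read -0.01 and 0.12 at 24 and 48 hpf. The dimmer probe set of that gene read -0.38 with age in wild types and -0.48 in mutants. Between genotypes that one read 0.002 and -0.10.

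**Figure D5:**
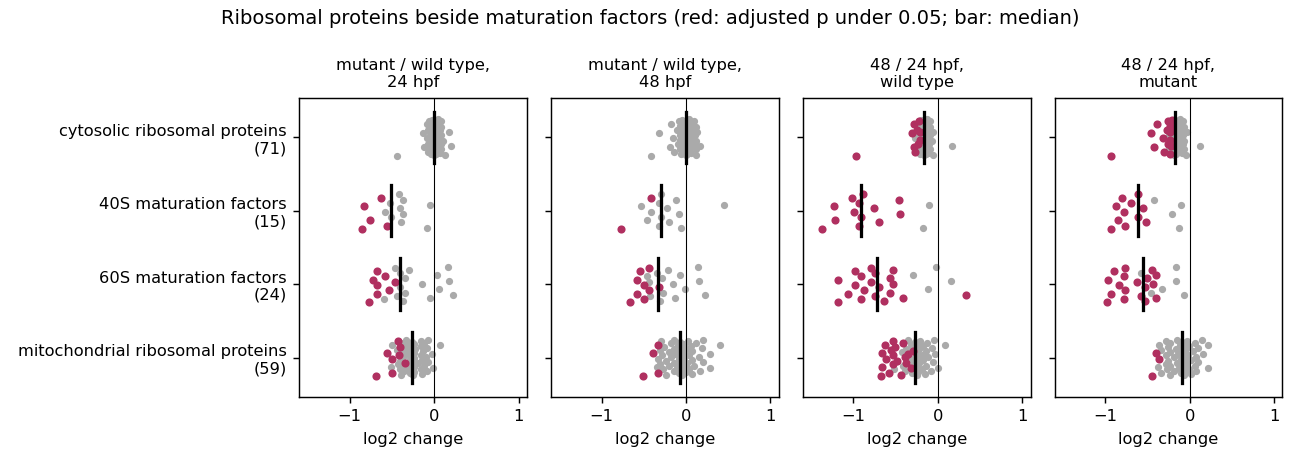
Log2 changes of the 71 cytosolic ribosomal protein genes beside 15 factors of 40S maturation, 24 of 60S maturation and 59 mitochondrial ribosomal proteins in the 4 comparisons; each point is a gene, red points passed the test and bars are medians. The cytosolic ribosomal proteins cluster tightly near 0 between genotypes, with medians of -0.0051 and 0.00012.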

How the data were processed

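The authors deposited normalized intensities, 1 per probe set and array, which are linear by their range. GCOS, RMA and affy are named in the submitters' processing notes; no version, background correction or filter is stated there. Here log2 was taken without a pseudocount. Of 15617 probe sets, 15502 entered the tests unfiltered, after removal of 115 Affymetrix controls. Membership was decided on the symbols of the platform annotation. Probe sets with a single symbol then took the RefSeq (GRCz12tu) symbol of their gene identifier, or kept the platform symbol where RefSeq lacked it. All 71 members were found there by gene identifier. A gene took its value from its brightest probe set. The fit used limma 3.58.1 (R 4.3.3), with a mean for each of 4 groups over all 16 arrays (n = 4 each, 12 residual degrees of freedom), two-sided, Benjamini-Hochberg over all probe sets, called at an adjusted p under 0.05. The fit was tested on simulated data. The number of arrays limits the precision. No test was made over the set as a whole.

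Members, gene lists and the naming rule were chosen with earlier results of these data known. Named members were those at the 5 highest and 5 lowest ranks of each genotype comparison and the 8 largest calls with age. Genes with several probe sets, paralogue pairs, the listed Diamond-Blackfan genes, stalk genes of the rplp series and rpsa were also named. Genes and groups named beyond this rule were chosen after their values were seen. Alternatives were other scalings between arrays, a filter on dim probe sets, the mean of a gene's probe sets, an intensity trend, a replicate block, fits on the arrays compared, leaving out paralogue-like symbols and leaving out each array.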

Additional observations from a re-analysis of the deposited data

Results flagged for a closer look

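In 168 groups of 4 arrays (39 named genes and 3 averages over the set, in each of 4 groups), 9 had an array that stood apart, with a gap to its nearest neighbour that was larger, as a share of the group's range, than Dixon's 95% limit. Chance gives about 5% of groups. In wild types at 24 hpf replicate 1 stood apart for 6 genes: it was highest for rpl11 (13.56), rpl17 (13.65), rpl36 (13.72), rpl39 (13.46) and rps18 (13.67), and lowest for rplp0 (13.96). Wild type replicate 3 at 48 hpf was highest for rpl26 (13.52). Mutant replicate 3 at 24 hpf was lowest for rpl4 (13.49), and mutant replicate 1 at 24 hpf was highest for rps7 (13.71). None of the averages over the large, the small or both subunits had such an array, and 0 members passed the test for a genotype difference that changes with age in limma (2 at an unadjusted p under 0.05).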

How the results depend on the processing

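No change listed here turned a called value to the other sign, and the cause of each move was not tested unless fewer arrays make it. In mutants against wild types at 24 hpf, 1 of the 71 genes was called (lower) after cyclic loess and 1 with the replicate number as a block, in place of 0. At 48 hpf the 0 became 2 lower with arrays centred on their median, 4 lower after cyclic loess, 2 higher after quantile normalization, 1 lower with an intensity trend and 1 lower with the replicate block. The gene called with the block was rpl7l1 (adjusted p = 0.0462 and 0.0394). Between genotypes at 24 hpf, deviations of same-numbered arrays correlated at 0.43, -0.31, 0.30 and 0.39. There numbers 1, 3 and 4 matched their own number best. Between genotypes at 48 hpf the correlations were -0.16, 0.03, -0.01 and 0.05. Between times they were 0.36, 0.04, 0.17 and 0.40 in mutants, where numbers 1, 3 and 4 again matched best. In wild types they were -0.24, 0.05, 0.11 and -0.04. Since not every number correlated, the pools were not treated as paired. Whether pools of the same number share an origin was not tested. The interaction had 0 calls under every alternative in limma. With age the 10 wild type calls became 2 (cyclic loess, 1 of them higher), 19 (quantile), 30 (intensity trend), 16 (mean of a gene's probe sets), 6 (dim probe sets left out), 5 (the arrays compared alone) and 6 (3 arrays least like their groups left out, chosen after seeing the data). The 16 mutant calls became 25 (centred), 3 (cyclic loess), 10 (quantile), 34 (intensity trend), 5 (the arrays compared alone) and 5 (those 3 arrays left out). Median changes moved to -0.069 in wild types with age (cyclic loess), to -0.098 (cyclic loess), -0.097 (quantile) and -0.14 (3 arrays left out) in mutants with age, and to -0.042, 0.041 and 0.039 under the same settings between genotypes at 48 hpf. Large minus small subunit moved to -0.0031 in mutants with age and 0.021 at 48 hpf (quantile), and to -7.93e-05 in wild types with age and -0.0088 at 48 hpf (3 arrays left out). Leaving out single arrays gave 0 to 0 calls at 24 hpf and for the interaction, 0 to 2 at 48 hpf, 4 to 13 in wild types with age and 3 to 22 in mutants with age. The medians then ran from -0.01 to 0.02 at 24 hpf, -0.03 to 0.03 at 48 hpf, -0.03 to 0.04 for the interaction, -0.18 to -0.15 in wild types and -0.21 to -0.14 in mutants with age. Large minus small ran from -0.0033 to 0.010, -0.013 to 0.026, -0.016 to 0.033, -0.034 to -0.011 and -0.035 to 0.015 in that order. The brightness of these probe sets may limit what changes the array can show, which was not tested.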
